A study of Mus musculus with 30 samples.

Results

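The interferon-stimulated genes described here are 48 mouse genes taken from a list of known interferon targets. All 48 were among the 45317 gene symbols of the count tables, and all 48 passed the filter on low counts that left 11566 genes for testing. The rule that defines them uses no expression value. They were split into 7 gamma-type members, the guanylate-binding proteins Gbp2, Gbp3, Gbp5 and Gbp7 and the immunity-related GTPases Irgm1, Irgm2 and Igtp, and 41 type I members, which are all the others. The study sequenced RNA from monocytes and macrophages sorted out of the blood and the brain of 4 C57BL6 mice, aged 12 to 18 weeks, that carry red fluorescent protein in 1 copy of Ccr2 (CCR2RFP/WT), so that Ccr2 is intact on the other copy only. All animals carried the glioma line GL261, a single line that expresses a membrane-bound green fluorescent protein (GFP) and was implanted in the striatum, so no population came from a mouse without a tumor. Blood gave Ly6Chigh and Ly6Clow monocytes (3 replicates each, mice 22, 23 and 24). The brain gave glioma monocytes (3 replicates each, mice 22, 24 and 26) and CCR2high and CCR2low macrophages (4 replicates each, mice 22, 23, 24 and 26), each sorted into cells without tumor GFP (GFPneg) and with it (GFPpos). Mouse numbers were read from the sample titles, and the labels do not spell them out as such. The tissue entry of the labels reads brain for the blood monocytes too, and their compartment was taken from the cell type entry.

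Interferons are cytokines that cells release on sensing infection, foreign nucleic acid or immune activation. Type I interferons (the alpha family and beta) signal through the receptor Ifnar1/Ifnar2 to a complex with Stat2 and Irf9 that binds the interferon-stimulated response element, and this drives antiviral genes such as Isg15, the Ifit genes and Rsad2. Interferon-gamma, made mainly by T cells and natural killer cells, signals through Ifngr1/Ifngr2 and acts at gamma-activated sites, and it drives the guanylate-binding proteins and immunity-related GTPases of macrophages. The classes overlap, since many Gbp and Irgm genes also respond to type I interferon and several antiviral genes also respond to interferon-gamma. The type I class as split here includes Iigp1, Ifi47 and Irf1, which are strong interferon-gamma targets.

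The sequence in front of the members' start sites was read from RefSeq promoter windows on build GRCm38.p6, which cover 250 bases before and 50 bases after each start. Of the 48 members, 38 had at least 1 window and Oas2, Mx1, Mx2, Zbp1, Usp18, Dhx58, Ifi204, Ifi27l2a, Parp14 and Iigp1 had none. Searched on both strands, the interferon-stimulated response element (GAAANNGAAA, on the other strand TTTCNNTTTC) was found in 22 of the 38 members (57.9%), against 1079 of 27025 genes with a window (3.99%). It was found in 15 of 31 type I members (48.4%) and in 7 of 7 gamma-type members (100%). The palindromic gamma-activated site TTCNNNGAA was found in 12 of the 38 members (31.6%), made up of 8 of 31 type I members (25.8%) and 4 of 7 gamma-type members (57.1%), against 9.55% of genes. Over single windows rather than genes the shares were 3.44% and 8.3% of 32851. These letters are matches to a pattern and not sites shown to be bound. The 150 bases before the start are printed for 3 type I members and 2 Gbp genes that rose in the glioma, and for Igtp and Irgm2, which lie side by side and did not move alike. Capitals mark both motifs.
Isg15 (chr4:156200819-156200968, minus strand): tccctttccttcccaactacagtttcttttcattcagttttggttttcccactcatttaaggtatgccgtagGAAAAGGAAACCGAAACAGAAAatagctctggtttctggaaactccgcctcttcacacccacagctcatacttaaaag
Ifit1 (chr19:34640739-34640888, plus strand): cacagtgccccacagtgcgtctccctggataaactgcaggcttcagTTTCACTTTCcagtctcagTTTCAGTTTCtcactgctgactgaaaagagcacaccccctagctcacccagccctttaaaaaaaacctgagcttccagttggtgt
Rsad2 (chr12:26456453-26456602, minus strand): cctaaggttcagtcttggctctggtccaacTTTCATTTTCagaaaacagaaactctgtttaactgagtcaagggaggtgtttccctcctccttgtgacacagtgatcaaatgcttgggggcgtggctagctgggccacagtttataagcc
Gbp2 (chr3:142620513-142620662, plus strand): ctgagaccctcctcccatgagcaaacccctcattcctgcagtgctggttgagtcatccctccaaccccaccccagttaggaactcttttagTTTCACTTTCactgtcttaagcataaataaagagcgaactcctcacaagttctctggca
Gbp7 (chr3:142530186-142530335, plus strand): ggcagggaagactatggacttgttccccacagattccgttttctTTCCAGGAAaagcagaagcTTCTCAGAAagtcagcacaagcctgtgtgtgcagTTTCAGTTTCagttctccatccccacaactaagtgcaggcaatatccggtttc
Igtp (chr11:58199406-58199555, plus strand): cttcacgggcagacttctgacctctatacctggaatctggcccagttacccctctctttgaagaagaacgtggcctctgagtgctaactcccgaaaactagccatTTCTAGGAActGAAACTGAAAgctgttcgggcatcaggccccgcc
Irgm2 (chr11:58214827-58214976, plus strand): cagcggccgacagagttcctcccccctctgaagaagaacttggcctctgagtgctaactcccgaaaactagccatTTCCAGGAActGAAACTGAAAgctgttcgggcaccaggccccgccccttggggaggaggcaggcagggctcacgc
Isg15 held 3 overlapping response elements, which began at -78, -72 and -66 from the start base, and Ifit1 held 2, at -104 and -85. Rsad2 held 1 at -120 and Gbp2 held 1 at -59. In Gbp7 a response element at -53 lay downstream of gamma-activated sites at -106 and -87. Igtp and Irgm2 each held a gamma-activated site whose first base lay 11 bases before that of a response element, and the 21 bases from one to the other differed between them at 1 base. The longest run of letters that both promoters shared was 61 bases.

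Libraries were uneven in a few places that touch the values below. Of 30 libraries, 1 of the Ly6Clow monocytes of mouse 23 failed the quality rule (3460 genes with 5 or more reads against a minimum of 6000) and its repeat was used, which itself had 6475 such genes and 13.3% spike-in reads. The GFPpos glioma monocytes of mouse 22 are the sum of 2 libraries with 8.68% and 1.29% spike-in reads, and those of mouse 24 had 5.16%, against 0.284% to 2.47% in the libraries not named here. The repeat of mouse 23 and the mouse 22 library with 1.29% were deposited in a count table separate from that of the other libraries. The 28 replicates held 1553616 to 5689644 counts on genes. Levels are CPM, counts relative to a library size scaled by the trimmed mean of M-values. A count of 0 allows up to 3 counts in a library. Fold changes are from 1 edgeR quasi-likelihood fit over all 8 populations, and a gene is called at an adjusted p under 0.05 (Benjamini-Hochberg over all genes tested). Shares of all genes called are those of this fit. Counts of members called under other settings stand without such a share, so whether all genes moved likewise is not shown.

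GFPneg glioma monocytes held the highest mean CPM of the 8 populations for 35 of the 41 type I members and for the 4 Gbp genes, a population that was highest for 10.6% of all genes tested. The exceptions were spread over other populations. GFPpos glioma monocytes were highest for Bst2, Ifi44, Irgm1 and Igtp, Ly6Chigh monocytes for Irf9, Stat2 and Irgm2, GFPpos CCR2high macrophages for Lgals3bp and GFPpos CCR2low macrophages for Iigp1. Ly6Clow monocytes were lowest for 27 type I and 6 gamma-type members, against 30.1% of all genes. Per kilobase of exon, Ifitm3 and Ifi27l2a were the most abundant members in every population. Ifitm3, a membrane protein that blocks virus entry, stood at 4312 ± 720 CPM per kb (SD, n = 3) in Ly6Chigh monocytes and 5191 ± 1280 (n = 3) in GFPneg glioma monocytes, a difference within the spread. Isg15, a ubiquitin-like protein attached to other proteins, was the next member in GFPneg glioma monocytes, at 1241 ± 472 CPM per kb. Next in Ly6Chigh monocytes was Ifi47, at 153 ± 52.5 CPM per kb.

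**Figure D1:**
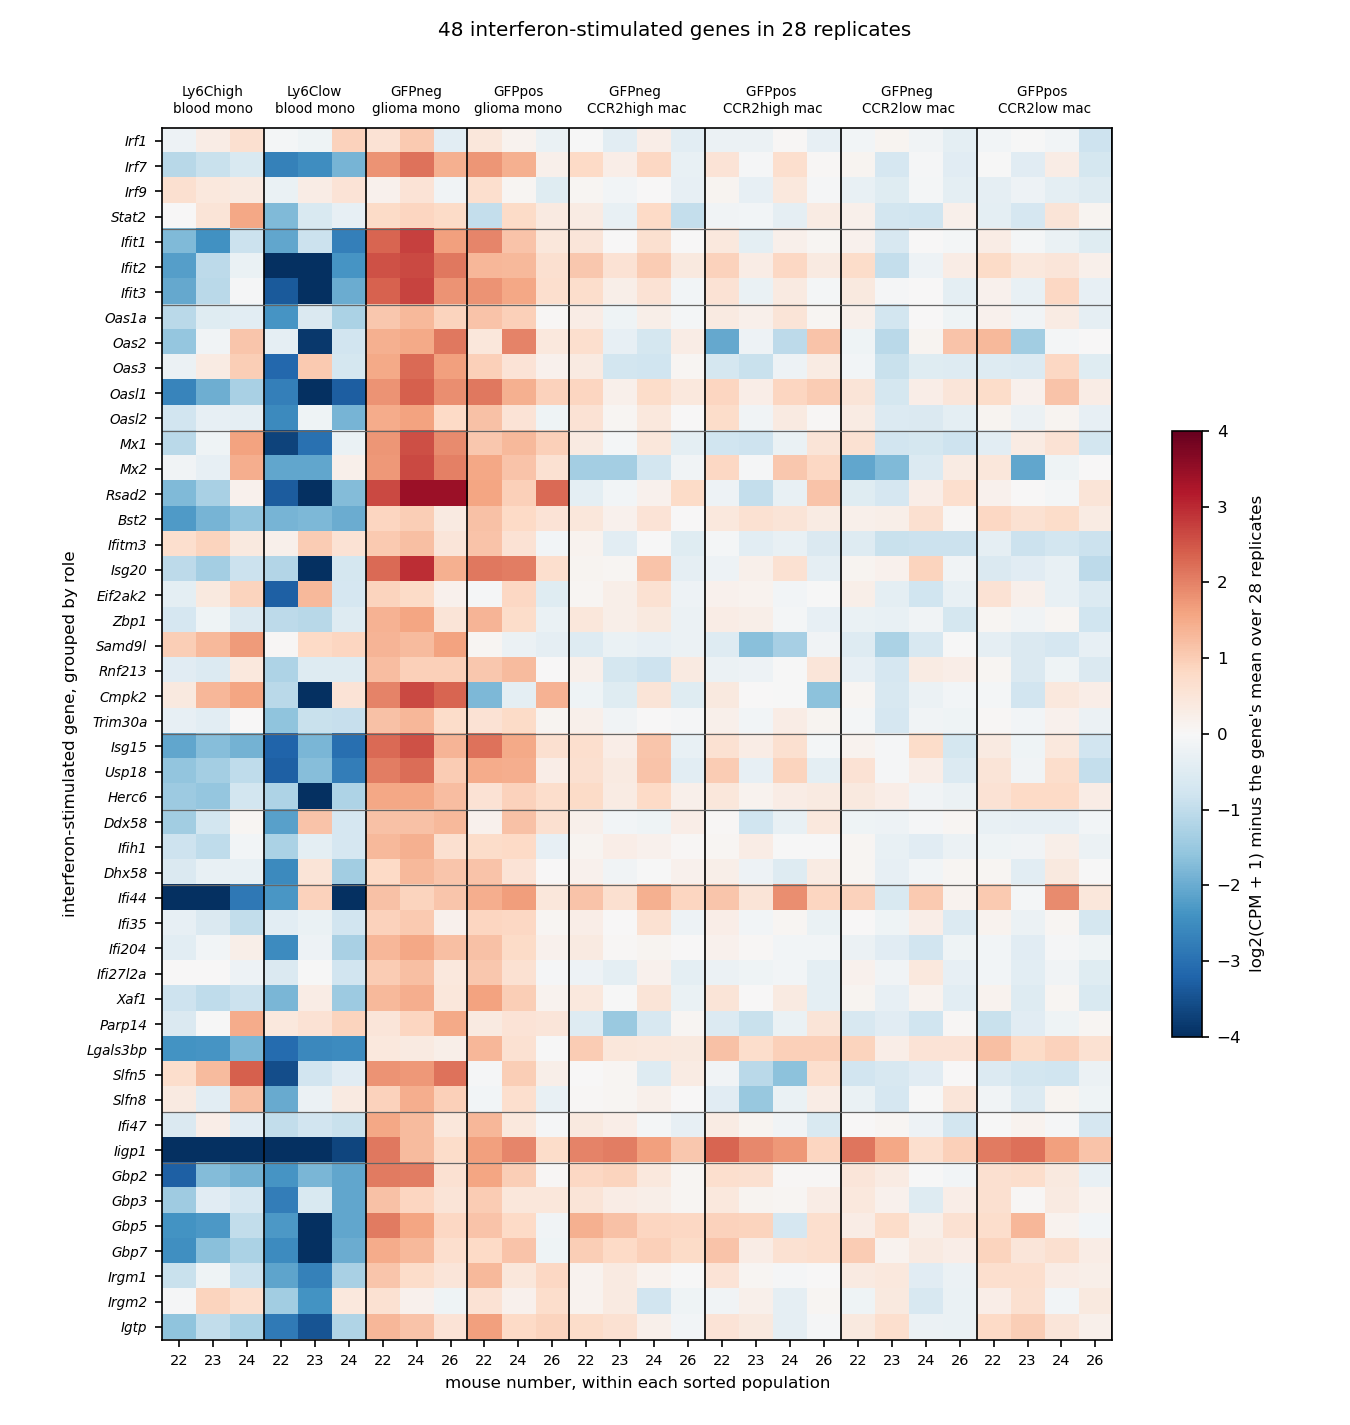
Each row is 1 of the 48 members, grouped by role from transcription factors (top) to gamma-type GTPases (bottom), and each column is 1 replicate, labelled by mouse number within its sorted population. Color gives log2(CPM + 1) minus the gene's mean over the 28 replicates, and values past -4 or 4 take the end colors. The GFPneg glioma monocytes carry the darkest red for most type I rows, and the blue of Iigp1 covers the 6 blood replicates.

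The first comparison asks how these genes differ between the circulating Ly6Chigh monocytes and the monocytes of the glioma. In GFPneg glioma monocytes 33 of the 48 members were higher than in Ly6Chigh blood monocytes and none was lower, where 10.9% of all genes tested were called higher and 2.71% lower. The called members were 27 of the 41 type I and 6 of the 7 gamma-type members. The median log2 fold change was 1.69 over the type I members and 2.30 over the gamma-type members, against 0.10 over all genes tested. With scaling by the spike-in RNAs 5 members were called. In bulk samples such as these, more RNA per cell and more cells of a type cannot be told apart, and since brain was digested and blood was not, compartment and handling cannot be told apart either.

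Genes of the ISG15 system and the IFIT family moved in full. Isg15 stood at 49.9, 64.6 and 56.2 CPM in the Ly6Chigh monocytes of mice 22, 23 and 24, and at 1020, 1248 and 548 CPM in the GFPneg glioma monocytes of mice 22, 24 and 26. The lowest glioma value lay far above the highest blood value, and the fitted log2 fold change was 4.04 (SE 0.49, adjusted p 1.49e-06), a 16.5-fold difference. Usp18, the protease that takes ISG15 off its targets, rose by 3.17 (SE 0.53, adjusted p 0.000108), and Herc6, the mouse ligase that attaches it, rose by 2.67. The Ifit proteins hold on to foreign RNA and block its translation. Ifit1 was at 34.0, 20.95 and 64.3 CPM in blood and at 594.8, 790 and 367.9 CPM in the glioma, a log2 fold change of 3.86 (SE 0.48, adjusted p 2.37e-06). Ifit2 (3.43) and Ifit3 (3.19) rose with it, and neither overlapped between the populations.

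Among the antiviral effectors the change was uneven. Rsad2, which makes a nucleotide that ends viral RNA chains, stood at 32.3, 45.4 and 129.3 CPM in blood and 707.9, 1219 and 1230 CPM in the glioma. Its log2 fold change was 3.92 (SE 0.79, adjusted p 0.000962). Cmpk2, its neighbor on chromosome 12 (26469204 to 26479837, with Rsad2 at 26442746 to 26456452, GRCm38), differed by 1.17 (SE 0.83, adjusted p 0.438) and was not called. Isg20, an RNA exonuclease (3.45), and Bst2, which tethers budding virus to the cell (2.65), rose, as did Zbp1, Trim30a and Rnf213. Rnf213 was the 1 member of the 33 that was lost with the mouse as a block (adjusted p 0.0377 without it and 0.052 with it), which left 32. In the same group Mx1, Mx2, Ifitm3, Eif2ak2 and Samd9l were not called. Mx1 stood at 10.8 to 74.0 CPM in blood and 82.25 to 145.7 CPM in the glioma (log2 fold change 1.57, SE 0.73, adjusted p 0.171). Samd9l overlapped between blood and glioma, at 125.8, 159.4 and 208.7 CPM against 163.5, 155.8 and 195.5 CPM.

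Oligoadenylate synthetases make the messenger that switches on RNase L. Oasl1, a family member without that activity, rose by 3.93 (SE 0.62, adjusted p 6.34e-05), with a highest blood value of 41.9 CPM and a lowest glioma value of 362.4 CPM. Oasl2 rose by 1.81 and Oas1a by 1.74, while Oas2 (1.56, SE 0.94, adjusted p 0.338) and Oas3 (1.39, SE 0.60, adjusted p 0.138) were not called. The 3 cytosolic RNA sensors Ddx58 (RIG-I), Ifih1 (MDA5) and Dhx58 (LGP2) rose by 1.77, 1.77 and 1.46. Of the 4 transcription factors only Irf7, the factor that amplifies alpha-interferon production, was called. It went from 341.2, 399.8 and 486.4 CPM to 2569, 3297 and 1957 CPM (log2 fold change 2.67, SE 0.38, adjusted p 1.27e-05). Irf1, Irf9 and Stat2 overlapped between the populations, with log2 fold changes of 0.24, -0.26 and -0.05.

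The GTPases held both the highest and the lowest fitted log2 fold change of the list, those of Iigp1 and Irgm2. Iigp1, an effector GTPase that breaks open parasite vacuoles, was read in 1 of 3 Ly6Chigh replicates only (0, 0 and 4.17 CPM, the last from 19 counts) and stood at 419, 231.8 and 160.1 CPM in GFPneg glioma monocytes. Its fitted log2 fold change was 7.09 (SE 0.93, adjusted p 4.87e-06), a size that leans on the near-absence in blood. Ifi44, an antiviral gene of the type I class, had the same 0, 0 and 4.17 CPM in blood and 68.1 to 83.8 CPM in the glioma (5.35, SE 1.15, adjusted p 0.00192). Gbp2 went from 48.7, 144.3 and 128.6 CPM to 2031, 1977 and 723.5 CPM, a log2 fold change of 3.88 (SE 0.45, adjusted p 7.37e-07). Gbp5, which promotes inflammasome assembly, rose by 3.35, Gbp7 by 2.93, Gbp3 by 1.68 and Irgm1 by 1.40. None of the 6 called gamma-type members overlapped between the populations. How many of all genes tested lacked overlap was not counted.

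**Figure D2:**
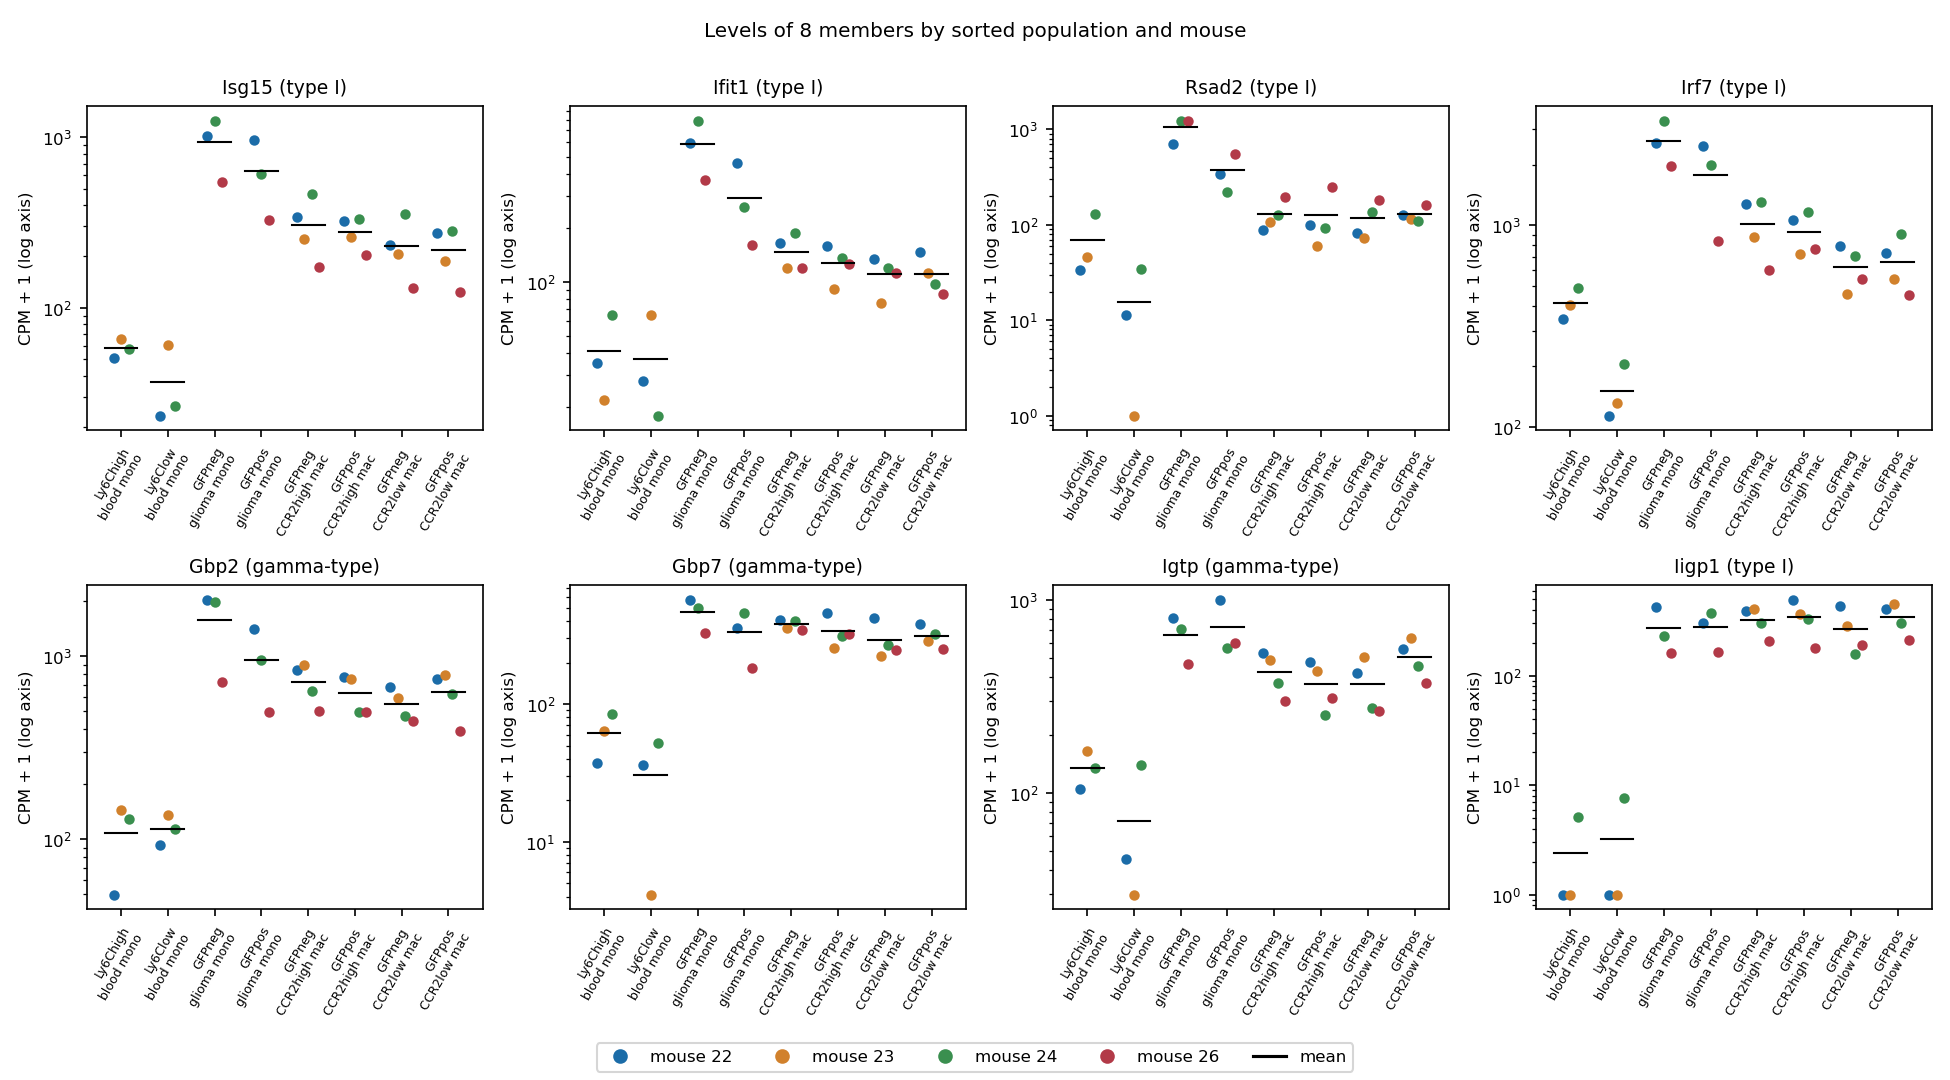
CPM + 1 (log axis) of 8 members in the 8 sorted populations, with 1 point per replicate colored by mouse and a bar at the mean. Isg15, Ifit1, Rsad2 and Irf7 peak in the GFPneg glioma monocytes and are lower in the macrophages, whereas Gbp7, Igtp and Iigp1 stay closer to the monocyte level in the macrophages.

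Igtp and Irgm2 stood apart within the gamma-type class. Igtp rose from 104.3, 163.5 and 134.5 CPM to 810.7, 707.6 and 468.9 CPM (log2 fold change 2.30, SE 0.43, adjusted p 0.00041). Irgm2 stood at 112.8, 216.5 and 186.3 CPM in blood and at 180.4, 131 and 102.9 CPM in the glioma, with ranges that overlapped (-0.32, SE 0.45, adjusted p 0.761). Both are immunity-related GTPases on chromosome 11 with the near-identical pair of motifs printed above. In the GENCODE annotation (GRCm38) Igtp spans 58199556 to 58207591 and Irgm2 58199618 to 58222782, so that the RefSeq start used for Irgm2 lies inside its GENCODE span. The 2 genes share 162 bases of exon on the same strand, and reads that fall on both were left out by the counting, so the level of each is uncertain in that stretch.

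The same members were then compared between GFPneg macrophages and Ly6Chigh blood monocytes, which are the same 3 control replicates as above. In CCR2high macrophages 16 members were higher (12.7% of all genes) and 3 lower (5.05%). In CCR2low macrophages 12 were higher (14.1% of all genes) and 4 lower (6.09%). With the mouse as a block the totals were 26 and 21 members, and with spike-in scaling they were 2 and 2. The type I class gave 11 higher and 3 lower members in CCR2high macrophages, with a median log2 fold change of 0.61, and 8 higher and 4 lower in CCR2low macrophages, with a median of 0.22. The gamma-type class gave 5 higher and 4 higher with none lower, and medians of 1.65 and 1.45. All genes tested had medians of 0.15 and 0.16. Because brain and blood were handled differently, these comparisons carry the limit named for the monocytes.

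Isg15 was at 339.3, 252.4, 461.6 and 172.4 CPM in GFPneg CCR2high macrophages, above each of the blood values, with a log2 fold change of 2.43 (SE 0.44, adjusted p 0.000256). In CCR2low macrophages it was at 233.1, 204.6, 354 and 128.8 CPM (2.02, SE 0.44, adjusted p 0.00137). Ifit1, Oasl1, Bst2, Usp18, Ifi44, Lgals3bp, Iigp1, Gbp2, Gbp5, Gbp7 and Igtp were also higher in both macrophage populations. Lgals3bp, a secreted ligand of galectin-3, was more strongly changed in them than most members, at 2.77 and 2.75. Gbp2 was 2.75 (SE 0.41, adjusted p 2.35e-05) and 2.34 (SE 0.40, adjusted p 0.000114) higher. Irf7 (1.31), Herc6 (1.76), Ifi35 (0.80) and Gbp3 (1.10) were called in CCR2high macrophages, and in CCR2low macrophages their values were 0.60, 1.30, 0.52 and 0.93 with no call. With the mouse as a block Irf7 (0.74, adjusted p 0.0148), Ifi35 (0.65, adjusted p 0.017) and Gbp3 (0.96, adjusted p 0.0471) were called in CCR2low macrophages too. Some of these calls were lost with 1 library left out, which was not followed by gene for Herc6, Ifi35 and Gbp3, nor for Bst2 in CCR2high macrophages. In CCR2low macrophages Usp18 was lost in 5 of 7 omissions (Ly6Chigh mouse 22, 23 or 24, CCR2low mouse 22 or 24), Ifit1 and Gbp5 without Ly6Chigh mouse 22 or 23, and Oasl1 and Igtp without Ly6Chigh mouse 22. In CCR2high macrophages Irf7 and Usp18 were lost without Ly6Chigh mouse 22.

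A few members were lower in macrophages than in blood, at a share near that of all genes tested. Of all genes 5.05% were called lower in CCR2high and 6.09% in CCR2low macrophages. Ifitm3 fell from 2922, 3412 and 2436 CPM in Ly6Chigh monocytes to 1299, 995.5, 1011 and 1022 CPM in GFPneg CCR2low macrophages (log2 fold change -1.43, SE 0.25, adjusted p 0.000136), and was lower by a log2 value of -0.83 in CCR2high macrophages. Slfn5, a schlafen protein, was at -1.63 and -2.08, and Samd9l, an antiviral gene that restrains growth of blood cells, at -1.70 (adjusted p 0.0004) and -1.93 (adjusted p 9.35e-05). Irf9 was called lower in CCR2low macrophages, at -0.78 (adjusted p 0.0239), and stood at -0.55 in CCR2high macrophages with no call. Without the Ly6Chigh monocytes of mouse 24 Slfn5 lost its call in both populations, at -1.03 and -1.46, and in the CCR2high comparison also without the CCR2high macrophages of mouse 22 or 24. Ifitm3 lost its call in CCR2high macrophages without the Ly6Chigh monocytes of mouse 23, and Irf9 in CCR2low macrophages without the Ly6Chigh monocytes of mouse 22 or the CCR2low macrophages of mouse 23. In GFPneg glioma monocytes the fold changes of Ifitm3, Slfn5 and Samd9l against blood were 0.27, 0.28 and 0.06.

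**Figure D3:**
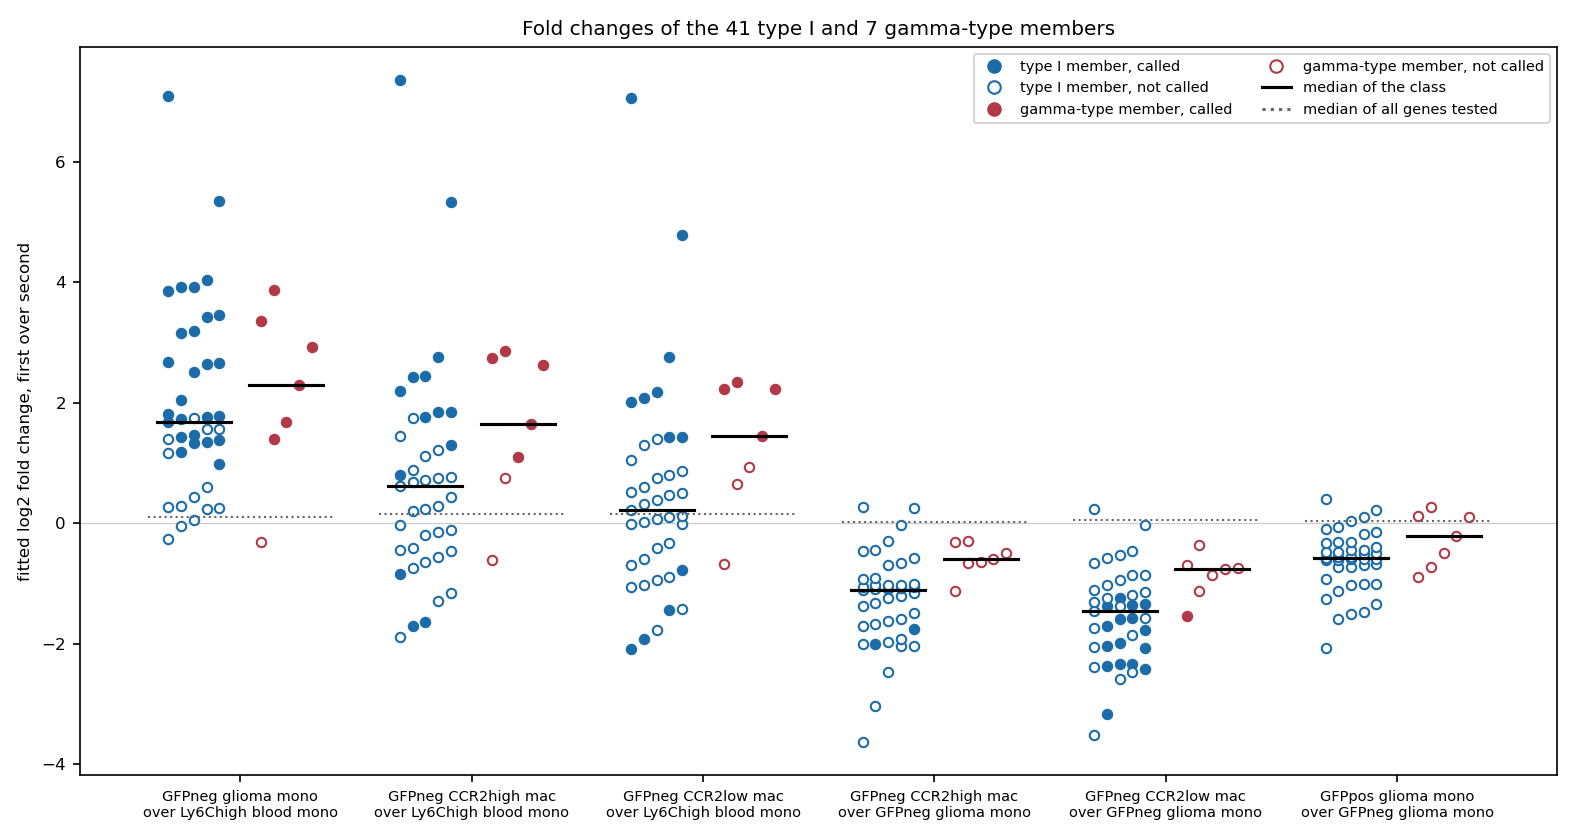
Fitted log2 fold change (first population over second) of the 41 type I members (blue) and 7 gamma-type members (red) in 6 comparisons, with filled points called at an adjusted p under 0.05, black bars at the class median and dotted lines at the median of all genes tested. The gamma-type median is above the type I median in each of the 6 comparisons, at 2.30 against 1.69 in the leftmost and -0.75 against -1.46 in the comparison of CCR2low macrophages with glioma monocytes.

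Marker genes of other cells and handling genes moved with these comparisons. Summed over 7 genes switched on by tissue dissociation, Ly6Chigh monocytes held 829.2 to 1140 CPM, GFPneg glioma monocytes 5130 to 10050 CPM, GFPneg CCR2high macrophages 3788 to 7069 CPM and GFPneg CCR2low macrophages 2534 to 5406 CPM, with 7 of 7 read in each. The 5 plasmacytoid dendritic cell markers, a cell type known for alpha-interferon, summed to 57.6 to 100.1 CPM in Ly6Chigh monocytes (Cox6a2 and Klk1 at 0), 234.4 to 284.9 CPM in GFPneg glioma monocytes and 87.1 to 137.5 CPM in the GFPneg macrophages. The 7 T cell and natural killer cell markers summed to 16.3 to 162.7 CPM in Ly6Chigh monocytes (Ncr1 at 0), 488.8 to 1061 CPM in GFPneg glioma monocytes, 538.2 to 1725 CPM in GFPneg CCR2high and 941.3 to 1693 CPM in GFPneg CCR2low macrophages. The 5 microglia markers were at most 57.0 CPM in blood and 756.4 to 5464 CPM in the GFPneg brain populations. The part of these cells and of the handling in the members' values was not tested. The sorted labels were checked against markers of their own. In the blood 5 classical monocyte markers summed to 4087 to 5031 CPM in Ly6Chigh and 589.8 to 1281 CPM in Ly6Clow monocytes, while 5 patrolling monocyte markers overlapped, at 1188 to 2542 CPM and 1936 to 4038 CPM. In the brain 6 macrophage markers summed to 3542 to 7142 CPM, against 1535 to 2175 CPM in blood, which sets brain apart from blood only. Classical markers summed to 6089 to 7279 CPM in GFPneg glioma monocytes. In GFPneg macrophages they summed to 1062 to 2170 CPM (CCR2high) and 620.8 to 1724 CPM (CCR2low). Macrophage markers of GFPpos glioma monocytes (3542 to 6876 CPM) overlapped with those of GFPpos CCR2high (5793 to 6728 CPM) and CCR2low macrophages (6360 to 7142 CPM). Both lists overlapped between CCR2high and CCR2low macrophages.

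Within the brain, macrophages were compared with glioma monocytes of the same GFP state, which came from the same tissue. In GFPneg CCR2low macrophages 17 members were lower than in GFPneg glioma monocytes and none was higher, where 0.951% of all genes were lower and 0.138% higher. They were 16 of 41 type I members and 1 of 7 gamma-type members. At an unadjusted p under 0.05 the count was 40 of 48, each of them lower, against 973 of 11566 genes tested in either direction. Medians of the log2 fold change were -1.46 (type I), -0.75 (gamma-type) and 0.05 (all genes tested). With the mouse as a block 23 members were called, and with spike-in scaling 0. Leaving out the glioma monocytes of mouse 24 left 6, leaving out the CCR2low macrophages of mouse 24 left 9, and leaving out the monocytes of mouse 22 or the macrophages of mouse 22 or 23 left 11.

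The 8 largest falls among the called members were of type I members. Rsad2 dropped from 707.9, 1219 and 1230 CPM to 80.4, 71.5, 136.1 and 182.8 CPM (log2 fold change -3.16, SE 0.68, adjusted p 0.0166). Ifit1 dropped from a range of 367.9 to 790 CPM to one of 74.9 to 133.2 CPM (-2.42, SE 0.41, adjusted p 0.00136). Slfn5 (-2.36), Oas3 (-2.33), Ifit3 (-2.33), Irf7 (-2.07), Isg15 (-2.03) and Samd9l (-1.98) completed them, each without overlap between the populations. How many of all genes lacked overlap here was not counted. Mx2 (-3.52), Cmpk2 (-2.59), Mx1 (-2.47) and Ifit2 (-2.38) had fitted values of this size with no call, and Ifit2 was called with the mouse as a block. Irf7 was at 785.3, 456.9, 704.7 and 538.3 CPM in the CCR2low macrophages (adjusted p 0.000856). Ifitm3 (-1.70), Ifi204 (-1.76), Zbp1 (-1.58), Oasl2 (-1.59), Ifih1 (-1.38), Trim30a (-1.35), Ifi47 (-1.34) and Oas1a (-1.24) were lower as well. Gbp2 was the gamma-type member called, at 675.1, 593.7, 469.3 and 440.5 CPM against 2031, 1977 and 723.5 CPM (-1.53, SE 0.37, adjusted p 0.0382). Omissions of 1 library were followed by gene for the first 8 and for Oasl2 and Gbp2. Of these, Ifit1, Irf7 and Samd9l were called in 7 of 7 omissions, Ifit3 and Isg15 lost the call without the glioma monocytes of mouse 24, Rsad2 lost it in 4 omissions, Slfn5 and Oasl2 in 5, Gbp2 in 6 and Oas3 in 7. The remaining gamma-type members lay between -0.36 and -1.12 with no call. Iigp1, at -0.03 (SE 0.62), and Lgals3bp, at 0.24 (SE 0.25), overlapped with the monocytes.

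In GFPneg CCR2high macrophages 3 members were lower than in GFPneg glioma monocytes, where 0.173% of all genes were lower and 0% higher. These were Ifit1 (-2.004, SE 0.40, adjusted p 0.0336), Samd9l (-1.76, SE 0.32, adjusted p 0.0148) and Trim30a (-1.09, SE 0.22, adjusted p 0.0302). Ifit1 and Trim30a lost their calls in 6 of 7 omissions of 1 library, and Samd9l without the CCR2high macrophages of mouse 22 or 23. All 3 are type I members, and Ifit1 stood at 163.3, 117.7, 184.8 and 117.9 CPM. A further 32 members had an unadjusted p under 0.05, which makes 35 of 48, each lower in the macrophages. Over all genes tested 620 of 11566 met that rule, in either direction. With the mouse as a block 14 members were called, and the 11 gained were Gbp2, Ifi27l2a, Ifi47, Ifit3, Ifitm3, Irf7, Isg15, Parp14, Rsad2, Usp18 and Zbp1. Isg15 changed little in size under the block (-1.62 without and -1.67 with it) while its adjusted p went from 0.116 to 0.00276. Spike-in scaling and the omission of the CCR2high macrophages of mouse 22 or 23 gave 0 members, the omission of the glioma monocytes of mouse 22 or 24 or of the CCR2high macrophages of mouse 24 or 26 gave 1, and that of the glioma monocytes of mouse 26 gave 5. Both macrophage populations were set against the same 3 monocyte replicates.

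Other gene lists differed between the same GFPneg populations. The dissociation genes summed to 6702, 10050 and 5130 CPM in the glioma monocytes of mice 22, 24 and 26, to 3801, 7069 and 3931 CPM in the CCR2high and to 3762, 5406 and 3742 CPM in the CCR2low macrophages of these mice, lower in each of them. The plasmacytoid dendritic cell markers summed to 234.4 to 284.9 CPM in the monocytes, 87.1 to 115.6 CPM in the CCR2high and 112.3 to 137.5 CPM in the CCR2low macrophages, without overlap with the monocytes. Their part in the lower values of the members was not tested.

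The GFPpos populations gave fewer calls with the same sign. In GFPpos CCR2low macrophages Ifitm3 was lower than in GFPpos glioma monocytes, at 1441, 1014, 1111 and 1021 CPM against 4050, 2725 and 1709 CPM (-1.30, SE 0.25, adjusted p 0.0186), a direction that spike-in scaling turned to 0.81. No other member was called, where 0.173% of all genes were lower and 0% higher. With the mouse as a block 6 members were called, Ifi27l2a, Ifi47, Irf7, Isg15 and Zbp1 in addition. Leaving out the GFPpos glioma monocytes of mouse 26 raised the count to 7, and the omission of the GFPpos monocytes of mouse 22 or 24 or of the GFPpos CCR2low macrophages of mouse 23, 24 or 26 took it to 0. In GFPpos CCR2high macrophages 0 members were called (16 at an unadjusted p under 0.05, each lower, and 0 by DESeq2), where 0.0173% of all genes were lower. The unadjusted p was met by 649 of 11566 genes in either direction. Without the GFPpos glioma monocytes of mouse 26 the count was 1. The class medians in the CCR2low comparison were -0.80 for type I and -0.35 for gamma-type members. Whether the fall from monocyte to macrophage differed between GFPneg and GFPpos cells was not tested.

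No member was called between CCR2low and CCR2high macrophages. Among GFPneg cells 0 of 48 were called by edgeR, 0 by DESeq2 and 2 at an unadjusted p under 0.05, Irf7 (-0.71, SE 0.31) and Ifitm3 (-0.60, SE 0.23), where 0% of all genes were called. Among GFPpos cells the counts were 0, 0 and 0, again with 0% of all genes called. The unadjusted p was met by 274 of 11566 genes in GFPneg and by 173 in GFPpos cells. Irf7 at 1268, 878.7, 1305 and 601.5 CPM in GFPneg CCR2high macrophages overlapped with the CCR2low values of 785.3, 456.9, 704.7 and 538.3 CPM, and within each of the 4 mice it was lower in the CCR2low cells. The same order held in all 4 mice for Ifitm3, Isg15, Zbp1 and Ifit1 among others, examples that were picked after their values were seen. It did not hold in all 4 mice for Bst2, Irgm1 and Isg20 among others. How many members, and how many of all genes, kept this order was not counted. Fitted differences in the GFPneg cells ran from -0.71 to 0.23 over the 48 members, with a median of -0.29.

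Between the blood subsets, Ly6Chigh monocytes had 6 members higher than Ly6Clow monocytes (2.3% of all genes) and 1 lower (2.95% of all genes). Higher were Irf7 (1.46, SE 0.36, adjusted p 0.0168), Ifit2 (2.66, SE 0.69), Ifit3 (2.19, SE 0.54), Trim30a (0.87, SE 0.23), Slfn5 (2.74, SE 0.58) and the gamma-type Irgm1 (1.33, SE 0.31, adjusted p 0.0114). Irf7 stood at 112.8, 130.5 and 203.6 CPM in Ly6Clow monocytes, below the lowest Ly6Chigh value of 341.2 CPM. Ifit3 overlapped, at 10.01, 3.14 and 27.3 CPM against 26.1 to 107.3 CPM. Ifi44 was the lower member (-3.75, SE 1.10, adjusted p 0.045), a direction that spike-in scaling turned to 0.84. Its Ly6Clow values of 6.37, 69.8 and 0 CPM overlapped with the Ly6Chigh values, and without mouse 23, the Ly6Clow sample with 13.3% spike-in reads, the value was -0.57 with no call. That sample also read 0 for Ifit2, Oas2, Oasl1, Mx2, Rsad2, Isg20, Cmpk2, Herc6, Iigp1 and Gbp5, and without it 7 members were called, of which Ifit2, Trim30a and Slfn5 were among those named here, while Irf7, Ifit3, Ifi44 and Irgm1 lost their calls. Spike-in scaling, which moved the median of all genes from 0.11 to 1.69, called 0 members. The count was 15 without the Ly6Clow monocytes of mouse 24, 3 without those of mouse 22, and 2 without the Ly6Chigh monocytes of mouse 23 or of mouse 24. With the mouse as a block 12 members were called, the 5 gained being Ifi47, Mx1, Oasl1, Rsad2 and Stat2. Conventional dendritic cell markers, 5 genes, summed to 98.9 to 219.3 CPM in Ly6Chigh and 337.4 to 1605 CPM in Ly6Clow monocytes, and T and natural killer cell markers to 777.7 to 1257 CPM in the latter, and their part was not tested.

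Uptake of tumor GFP was the last contrast. Between GFPpos and GFPneg glioma monocytes 0 of 48 members were called by edgeR, and 0% of all genes. DESeq2 called 1 member, Samd9l. At an unadjusted p under 0.05, 10 members were lower in GFPpos cells and none higher, all of them type I (Cmpk2, Samd9l, Rsad2, Slfn5, Ifit2, Oas3, Slfn8, Ifit1, Ifih1 and Trim30a), where 3.41% of all genes met the same rule. Samd9l stood at 163.5, 155.8 and 195.5 CPM in GFPneg and 67.1, 53.7 and 49.2 CPM in GFPpos monocytes of mice 22, 24 and 26 (-1.60, SE 0.35, adjusted p 0.287). Paired by mouse, 30 of 48 members were lower in the GFPpos cells of all 3 mice and none was higher in all 3, where 17.8% of all genes were lower and 16% higher in every mouse. By mouse, 36, 42 and 42 members were lower in mice 22, 24 and 26, against 48.95%, 50.9% and 49.8% of all genes. Spike-in reads of the GFPpos monocytes made up 8.68% and 1.29% (mouse 22), 5.16% (mouse 24) and 0.612% (mouse 26). In the GFPneg monocytes of these mice they made up 0.596%, 0.742% and 0.319%. The part of library quality in the members' values was not tested.

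Rsad2 went from 707.9 to 341.3 CPM in mouse 22, from 1219 to 221.6 CPM in mouse 24 and from 1230 to 552.1 CPM in mouse 26. Isg15 went from 1020 to 963.5, from 1248 to 604.4 and from 548 to 327.7 CPM, the smallest step being that of mouse 22. Igtp and Irgm1 had no common direction, and Igtp was at 810.7 and 1004 CPM in mouse 22 and at 707.6 and 565.6 CPM in mouse 24. In CCR2high macrophages 0 members were called (0 at an unadjusted p under 0.05, 0 by DESeq2, and 0% of all genes). The unadjusted p was met by 71 of 11566 genes. There 4 members were lower in all 4 mice (7.16% of all genes) and 4 higher (6.16%). In CCR2low macrophages 0 members were called, again with 0 at an unadjusted p under 0.05, 0 by DESeq2 and 0% of all genes. The unadjusted p was met by 184 of 11566 genes. There 3 members were lower in all 4 mice (8.71% of all genes) and 8 higher (8.77%), the latter with Irgm1, Irgm2 and Igtp among them. Macrophage markers, which rise as monocytes mature, summed to 3729 to 4005 CPM in GFPneg and 3542 to 6876 CPM in GFPpos glioma monocytes. The classical monocyte markers summed to 6292, 6089 and 7279 CPM in GFPneg and 5099, 3016 and 3249 CPM in GFPpos glioma monocytes of mice 22, 24 and 26, lower in each mouse and without overlap. The microglia markers were higher in GFPpos cells of each mouse, at 860.5 and 1450, 1751 and 1988, and 756.4 and 971.2 CPM. The part of these markers in the members' values was not tested.

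The classes can be set side by side across the comparisons with blood. From monocytes to CCR2high to CCR2low macrophages the type I median went from 1.69 to 0.61 to 0.22, and the gamma-type median from 2.30 to 1.65 to 1.45. The 3 comparisons share their blood replicates, and the medians are given without a test. With Iigp1, Ifi47 and Irf1 counted as gamma-type, that class had 10 members and medians of 1.99, 1.38 and 1.19, and the 38 remaining type I members had 1.71, 0.65 and 0.27. In the comparison of GFPneg CCR2low macrophages with GFPneg glioma monocytes this grouping gave -0.74 and -1.57.

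The same 4 animals run through the brain populations, and some members kept an order among mice. Mouse 26 was the lowest mouse in all 6 brain populations for 10 of 48 members (20.8%), Irf1, Bst2, Isg20, Zbp1, Isg15, Usp18, Ifi35, Xaf1, Ifi47 and Gbp2, where this held for 333 of 11566 genes tested (2.88%). Rsad2 went the other way and was highest in mouse 26 in all 6 (2.08% of members against 4.48% of genes). Isg15 read 548, 327.7, 172.4, 201.7, 128.8 and 123.5 CPM in mouse 26, and in mouse 24 it read 1248, 604.4, 461.6, 331.9, 354 and 281.6 CPM in the same order of populations. Mouse 22 was highest in all 6 for Lgals3bp and Gbp3 (4.17% against 0.709% of genes), mouse 24 was never highest or lowest throughout, and mouse 23 lacks glioma monocytes. Populations of 1 animal share its tumor, so these are not independent repeats. The summed T and natural killer cell markers were also lowest in mouse 26 in all 6 brain populations, at 488.8, 370.4, 538.2, 380.8, 941.3 and 294.9 CPM in the same order. Ifng, the gene for interferon-gamma, was lowest there as well, at 13.5, 14.2, 16.1, 16.2, 64.7 and 8.52 CPM. Of the 10 members 1, Gbp2, was gamma-type. Among other targets of interferon-gamma, Psmb8, Psmb9, Psmb10, Tgtp1 and Tgtp2 were lowest in mouse 26 in all 6 populations. They were picked after their values were seen. Others of these targets, Cxcl9, Ciita, Nlrc5 and Gbp9 among them, were not lowest in mouse 26 throughout. Nos2, another such target, was highest there in all 6, at 256, 135.1, 135.6, 207.5, 148.1 and 171.9 CPM. The part of T and natural killer cells and of Ifng in the order of the mice was not tested.

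**Figure D4:**
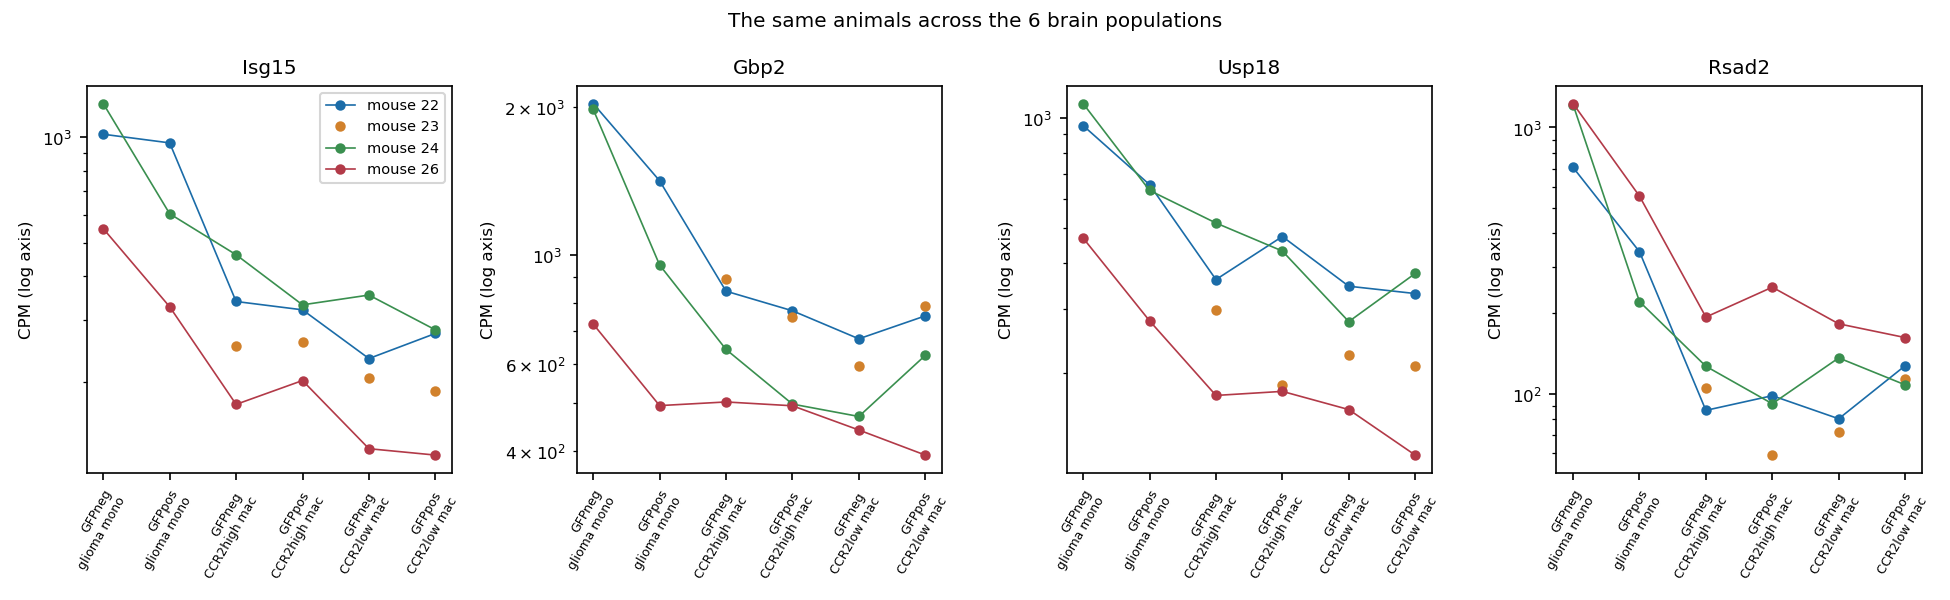
CPM (log axis) of Isg15, Gbp2, Usp18 and Rsad2 in the 6 brain populations, with lines joining the samples of mice 22, 24 and 26 and unjoined points for mouse 23, which has no glioma monocytes. Mouse 26 is the lowest in each population for Isg15, Gbp2 and Usp18 and the highest for Rsad2.

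The rest of the interferon pathway was read from a list of 70 genes, of which 49 were tested. Against Ly6Chigh monocytes, 19 were higher and 1 lower in GFPneg glioma monocytes, 18 and 4 in CCR2high macrophages, and 15 and 4 in CCR2low macrophages. Of all genes tested, 10.9% were higher and 2.71% lower, 12.7% and 5.05%, and 14.1% and 6.09%, in the same order. Of 20 ligand genes only Ifng passed the filter. Ifng was at 0 in all 3 Ly6Chigh replicates and at 42.7, 36.4 and 13.5 CPM in GFPneg glioma monocytes, which is at least 22.6-fold higher with blood set at 3 counts per library (adjusted p 0.000342). The lower bounds were 49.0-fold in GFPneg CCR2high and 73.4-fold in GFPneg CCR2low macrophages, where its means were 67.0 and 100.5 CPM. Ifnb1 was at 0 in all blood replicates and at 2.57, 1.58 and 0.643 CPM in GFPneg glioma monocytes. It was at most 3.78 CPM in any replicate, a value from GFPneg CCR2low macrophages. The alpha genes were at most 10.8 CPM, with nearly all of their reads in the glioma monocytes of mouse 22. The lambda genes Ifnl2 and Ifnl3 were at most 31.2 and 13.2 CPM, both in the GFPpos glioma monocytes of mouse 22. Ifng is a product of T and natural killer cells, whose marker sums are given above.

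Ifngr1, a chain of the interferon-gamma receptor, was the lower gene in glioma monocytes, at 723.8, 728.2 and 616.8 CPM against 2029, 1994 and 1586 CPM in blood (-1.44, SE 0.23, adjusted p 5.94e-05). Ifnar1, Ifnar2, Jak1 and Tyk2 were not called. Jak2 rose by 2.26 and Socs3, which turns off cytokine receptors, by 3.36. Of 10 genes for nucleic acid sensing and interferon induction, Tlr3 (3.45) and Tmem173 (STING, 1.16) were higher. In the direct comparison of GFPneg macrophages with GFPneg glioma monocytes 0 of the 49 pathway genes were called in either macrophage population by edgeR, with 4 (CCR2high) and 8 (CCR2low) at an unadjusted p under 0.05. Of all genes tested 0.173% and 0.951% were called lower and 0% and 0.138% higher. At that unadjusted p stood 620 and 973 of 11566 genes.

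Other targets of interferon-gamma were high in the glioma. Of 18 tested, 13 were higher in GFPneg glioma monocytes than in Ly6Chigh monocytes, 13 in CCR2high and 12 in CCR2low macrophages. The shares of all genes tested were 10.9%, 12.7% and 14.1%. Cxcl9, a chemokine for T cells that responds mainly to interferon-gamma, stood at 0, 8.73 and 4.17 CPM in blood and at 558.8, 830.7 and 182 CPM in the glioma monocytes (6.93, SE 0.81, adjusted p 8.9e-07). It stayed at 285.3 to 613.4 CPM in GFPneg CCR2high and 203.7 to 406.3 CPM in GFPneg CCR2low macrophages. Cxcl10, which responds to either interferon, went from 12.5 to 52.7 CPM in blood to 964.7 to 2623 CPM in the glioma monocytes (5.79, SE 0.81, adjusted p 1.18e-05), and to 467.6 to 638.9 and 299.9 to 462.1 CPM in the macrophages. Nos2, the inducible nitric oxide synthase, was at 0 in all 6 blood replicates and at 81.2, 66.5 and 256 CPM in GFPneg glioma monocytes, at least 98.4-fold higher than Ly6Chigh monocytes. Gbp4, Gbp6, Gbp8, Gbp9, Gbp10, Tgtp1, Tgtp2, Tap1, Psmb8 and Psmb9 were the other genes that rose in glioma monocytes.

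**Figure D5:**
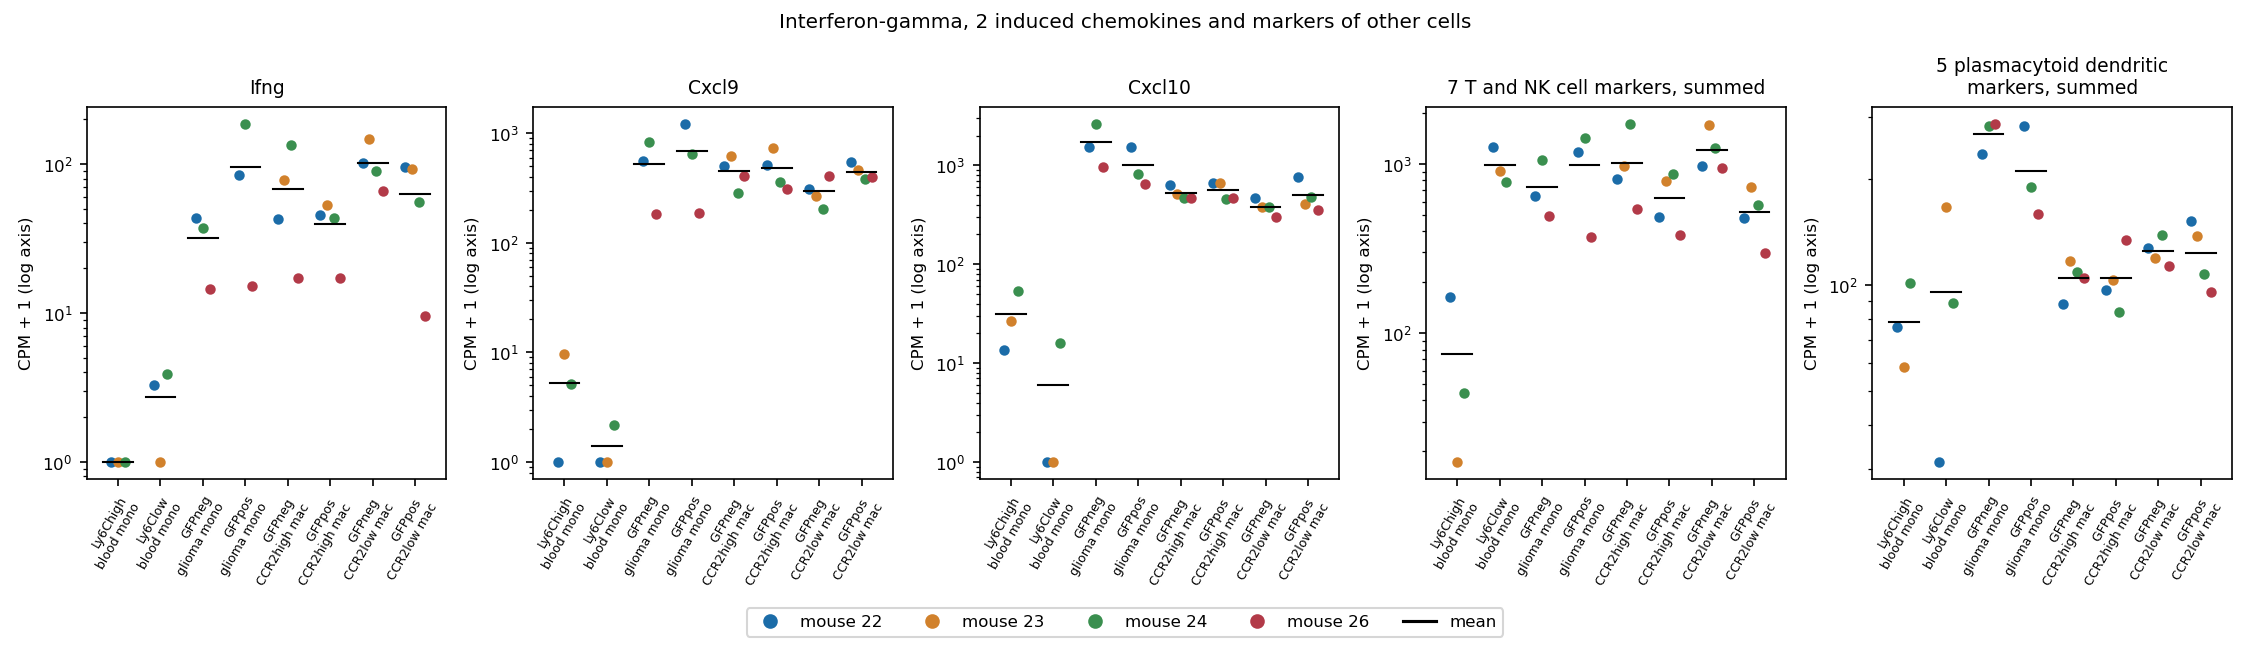
CPM + 1 (log axis) of Ifng, Cxcl9 and Cxcl10 and the summed CPM + 1 of 7 T and natural killer cell markers and 5 plasmacytoid dendritic cell markers in the 8 populations, with 1 point per replicate colored by mouse and a bar at the mean. Ifng is at 0 in the 3 Ly6Chigh replicates, and Cxcl10 peaks in the GFPneg glioma monocytes at 964.7 to 2623 CPM.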

How the data were processed

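RNA was measured in 8 sorted populations of 4 mice. The authors deposited whole-number read counts per gene, 1 column for each of 30 libraries, not normalized. The authors amplified poly-A RNA with the SMARTer kit, used STAR for alignment to mm10 and Picard (1.8.4 per the submitters' notes, which also name R 3.2.3) to drop duplicates, and assigned reads to Gencode genes (GRCm38) with htseq-count set to intersection-strict. Its strand setting is not given in the sources used here, so opposite-strand overlaps (Slfn5 with Slfn5os, Rnf213 with A930037H05Rik) are uncertain, as are families of near copies (Ifit3, Gbp, Slfn8, Ifi204, Trim30a, Oas1a). The depth was 1553616 to 5689644 counts per replicate. Limits for counts of 0 (3 counts, 95% confidence) cover counting error only. Reads on no gene (6.28% to 17.4%) and on several genes (1.58% to 1.9%) did not enter the library sizes, nor did 92 spike-in RNAs. Libraries below 6000 genes with 5 reads were left out and the 2 passing libraries of 1 sample were summed, leaving 28 replicates. No column went unused (0).

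Counts were tested with edgeR 4.0.16 (R 4.3.3, limma 3.58.1): trimmed mean of M-values scaling, filterByExpr, 1 robust quasi-likelihood fit over the 8 populations, Benjamini-Hochberg adjustment over 11566 genes. The steps were run on simulated counts that had no mouse effect, so that run cannot speak to the sharing of animals between populations. Alternatives were DESeq2 1.42.0 and its size factors, spike-in scaling, filters on low counts, the first library of each sample alone, the compared populations alone, the mouse number as a replicate block, and leaving out each replicate. Replicate numbers come from the sample titles. They were read as mouse numbers, which the labels do not spell out, and on that reading they pair the populations by animal. Deviations from the population mean correlated across genes with a median of 0.135 in 86 pairs of the same mouse (-0.0958 to 0.674) and -0.0292 in 256 pairs of different mice. Populations of 1 mouse are not independent, so p-values without the block measure the spread between these 28 replicates.

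The 48 members and the gene lists were chosen with earlier results of these data known, so no adjusted p over a list alone is given. Every called member was named where 12 or fewer were called, otherwise the 8 with the largest fold change in each direction. Isg15, Ifit1, Ifit3, Irf7, Rsad2, Oasl2, Mx1, Usp18, Gbp2, Gbp5, Irgm1 and Igtp could be named in any case, and further members were named after their values were seen. Positions and exon lengths came from GENCODE vM21 and promoters from RefSeq GRCm38.p6, the same genome build as the counts. A single gene of the pathway list is not reported here.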

Additional observations from a re-analysis of the deposited data

Results flagged for a closer look

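In the macrophage populations, which have 4 replicates each, 10 of 192 combinations of a member and a population held a replicate that stood apart from the other 3 by Dixon's criterion. Chance alone gives this in about 1 of 20 groups. Mouse 22 was the high replicate of GFPneg CCR2low macrophages for Oasl2 (514.9 CPM), Mx1 (36.7 CPM) and Ifitm3 (1299 CPM), of GFPneg CCR2high macrophages for Lgals3bp (2759 CPM) and of GFPpos CCR2high macrophages for Irgm1 (859 CPM). In GFPpos CCR2low macrophages Oas3 (158.3 CPM) and Ifih1 (69.9 CPM) were high in mouse 24, Ddx58 was high (102.7 CPM) and Irf1 low (165 CPM) in mouse 26. Trim30a was low in GFPneg CCR2low macrophages of mouse 23 (152.3 CPM).

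For 3 members the GFPpos cells were lower than the GFPneg cells in all 3 mice among glioma monocytes and higher in all 4 mice in a macrophage population. For Mx2 the largest difference in monocytes was -1.525 on the log2(CPM + 1) scale, and in CCR2high macrophages the differences were 0.99 to 2.17, at levels of at most 7.93 CPM there. For Herc6 the values were -0.99 in monocytes and 0.18 to 0.93 in CCR2low macrophages. For Ifi204 they were -1.03 in monocytes and 0.000444 to 0.72 in CCR2low macrophages. These differences between populations were not tested.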

How the results depend on the processing

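Counts of called members are given by setting, without the share of all genes called in the same setting. A count that moves may therefore belong to a setting that calls more or fewer of all genes. Spike-in scaling left 5 members in GFPneg glioma monocytes against Ly6Chigh monocytes, 2 in each GFPneg macrophage population against Ly6Chigh monocytes, and 0 for Ly6Chigh against Ly6Clow monocytes, for both GFPneg macrophage populations against GFPneg glioma monocytes and for GFPpos CCR2low macrophages against GFPpos glioma monocytes. It moved the median log2 change of all genes from 0.11 to 1.69 for the blood pair, from 0.00 to 1.70 for GFPpos CCR2low macrophages against monocytes and from 0.05 to -1.37 for GFPpos against GFPneg monocytes, and it reversed Ifi44 in the blood pair (0.84) and Ifitm3 in GFPpos CCR2low macrophages (0.81). DESeq2 called 11 in the blood pair, 14 in GFPneg CCR2high macrophages against monocytes, 3 in GFPpos CCR2low macrophages against monocytes and 1 for GFPpos against GFPneg monocytes. For GFPneg CCR2high macrophages against monocytes, DESeq2 size factors gave 5, a minimum of 10 counts in every replicate 8, no filter 5, the first library alone 0 and the compared populations alone 17. For GFPneg CCR2low macrophages the last 2 settings gave 8 and 30. In the blood pair no filter and the first library alone gave 4 each and the compared populations alone 0. In GFPpos CCR2low macrophages both filters gave 2 and the compared populations alone 0. CCR2high macrophages against Ly6Chigh monocytes gave 29 with the compared populations alone.

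With the replicate block, the pairing by mouse, the counts were 14 in GFPneg CCR2high and 23 in GFPneg CCR2low macrophages against GFPneg monocytes, 6 in GFPpos CCR2low macrophages, 12 in the blood pair and 32, 26 and 21 against Ly6Chigh monocytes. Apart from Rnf213, every change of call under the block was a gain, and comparisons at 0 stayed at 0.

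Leaving out 1 replicate gave 29 to 32 members for GFPneg glioma monocytes, 15 to 19 for CCR2high and 11 to 16 for CCR2low macrophages against Ly6Chigh monocytes, 2 to 15 for the blood pair, 0 to 5 for GFPneg CCR2high and 6 to 16 for GFPneg CCR2low macrophages against monocytes, 0 to 1 for GFPpos CCR2high and 0 to 7 for GFPpos CCR2low macrophages against monocytes, and 0 in the other comparisons. Of 67 values named by the rule, 38 stayed called under every omission, 35 under every alternative but spike-in scaling and 9 under all. Depth and 3 or 4 replicates limit calls at low counts, such as those of Mx2 and Oas2.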
